A study of Mus musculus with 48 samples.

Results

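The proteasome genes described here are 46 of the 22354 genes counted in mouse liver. They were taken by symbol, Psm followed by a letter from a to g and a number, with at least 10 counts in at least 3 libraries. The pattern matched 47 symbols, and Psmb11, the catalytic subunit of the thymus, stayed out because its highest count was 2. All 46 genes passed the filter on low counts and entered every test. Psmb9, another catalytic subunit of the immunoproteasome, is not analysed here.

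The mice were female C57BL/6J. The 23 KO mice carried a knockout of Bmal1 (Arntl in the files), which encodes an activator of circadian transcription, and the deletion was specific to adipocytes, and 25 mice were WT. Livers were collected every 4 h over 24 h, starting at ZT0 and ending at ZT20, with 4 mice per genotype and time, except for 3 KO and 5 WT mice at ZT16. Mice of both genotypes had been housed on a light and dark schedule, and then spent 1 day in constant darkness and 24 h without food before collection. Ages ran from 28.75 to 105 weeks, with mean ages of 42.1 weeks at ZT20 and 56.9 to 68.5 weeks at the other times. Mean body weights ran from 20.1 to 27.9 g over the KO groups and from 20.1 to 24.0 g over the WT groups. They moved with time: over both genotypes they were 24.8 to 25.2 g at ZT0, ZT4 and ZT8, and 20.2 to 21.6 g at ZT12, ZT16 and ZT20. The driver of the deletion is not given in the sources used here, and the deletion was aimed at fat, not at liver. Each library came from a different mouse, and 1 cycle of 24 h was sampled, so a rhythm here means a fit to a single day.

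The proteasome degrades proteins tagged with ubiquitin. Its core particle is a barrel of inner beta rings, which hold the proteolytic sites, and outer alpha rings, which gate the entrance. The regulatory particle caps the barrel: its base unfolds substrates with a ring of ATPases, and its lid holds the deubiquitinating subunit. Interferon-gamma induces alternative catalytic subunits and the PA28 activator, which favour peptides for MHC class I. In liver the proteasome takes part in the daily turnover of proteins, clock repressors among them, and in the use of protein during fasting.

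Promoters from RefSeq (build GRCm38.p6, 250 bases before to 50 after the start) were matched to 38 of the 46 genes. They are shown for the gene with the smallest p for a rhythm in each of 3 sets: Psmd11 in the regulatory particle, Psmb3 in the core particle, and Psme2 among the interferon-inducible genes. Capitals mark matches to CCAAT (the box bound by NF-Y) and to a motif like the interferon-stimulated response element (GAAA, any 2 bases, GAAA), read on both strands.
Psmd11 (chr11:80428365-80428664, plus strand): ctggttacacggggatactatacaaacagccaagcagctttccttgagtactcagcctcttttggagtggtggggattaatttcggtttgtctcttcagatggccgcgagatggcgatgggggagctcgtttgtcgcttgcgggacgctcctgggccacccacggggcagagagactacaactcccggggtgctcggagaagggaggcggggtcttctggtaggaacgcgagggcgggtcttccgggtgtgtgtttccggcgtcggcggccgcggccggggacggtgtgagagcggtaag
Psmb3 (chr11:97703184-97703483, plus strand): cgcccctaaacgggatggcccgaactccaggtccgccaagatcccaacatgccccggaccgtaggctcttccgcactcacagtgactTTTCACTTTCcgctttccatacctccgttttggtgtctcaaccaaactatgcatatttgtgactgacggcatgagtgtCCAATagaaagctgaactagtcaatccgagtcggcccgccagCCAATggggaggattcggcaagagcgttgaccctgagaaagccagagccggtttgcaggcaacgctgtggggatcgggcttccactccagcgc
Psme2 (chr14:55591052-55591351, minus strand, the more upstream of 2 listed starts): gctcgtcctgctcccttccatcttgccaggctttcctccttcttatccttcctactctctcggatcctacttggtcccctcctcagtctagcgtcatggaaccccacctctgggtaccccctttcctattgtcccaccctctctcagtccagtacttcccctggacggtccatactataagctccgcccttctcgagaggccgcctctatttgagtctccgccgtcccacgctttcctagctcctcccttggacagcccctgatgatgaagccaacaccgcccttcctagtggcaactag
The Psmb3 window held 3 matches, to CCAAT and to the interferon-type motif, and the Psmd11 and Psme2 windows held none. CCAAT was found in promoters of 31.6% of the matched proteasome genes, against 41.1% of all 27025 genes in the promoter table. It was in 6 of 11 core particle genes and in 4 of 14 regulatory particle genes with a promoter. The core of the antioxidant response element read by NRF1 and NRF2, TGACNNNGC, was found in 15.8% of the proteasome genes, Psmb5, Psmb6, Psmc6, Psmd12, Psmd9 and Psme4, against 14% of all genes. The clock's canonical E-box, CACGTG, was found in 10.5% (Psma4, Psmb10, Psmd9 and Psme3), against 8.09% of all genes. The interferon-type motif was found in 13.2% (Psmb3, Psmd4, Psmd9, Psme1 and Psmg4), against 3.99% of all genes. These matches describe letters in these windows only.

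Each library held 12841969 to 13009797 counts without Alb, and levels are counts scaled to a common library size (CPM). The 7 hepatocyte markers, such as Ttr and Hnf4a, were all tested, with summed medians of 36900 CPM in KO and 38100 CPM in WT. Of 5 adipocyte markers only Fabp4 passed the filter, and Adipoq, Plin1, Lep and Cfd had a median count of 0. Arntl was present in liver of both genotypes, at 32.4 CPM in KO and 37 CPM in WT at ZT0, with a log2 difference over all times of 0.30 (SE 0.16, edgeR quasi-likelihood test, adjusted p = 0.347). The libraries differed in how levels followed the GC content of transcripts: the slope ran from -0.817 to 0.629 log2 units per 10 points of GC. This slope moved with time. Its mean over both genotypes was 0.189 at ZT0 and -0.25 at ZT8, the highest and the lowest of the 6 times. Results were also fitted with the slope as a covariate, and without the 8 libraries whose slope was beyond 0.6 in size; leaving these out was chosen after the data were seen.

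The highest levels per kilobase of transcript were those of core particle genes, although the ranges of the core and regulatory particles overlapped. Over all mice, level per kilobase was 203 CPM for Psmb6 (the caspase-like site), 199.8 CPM for Psmb3 (a structural beta subunit) and 179.5 CPM for Psma7 (an alpha subunit), and it was as low as 41.75 CPM for Psma2, another alpha subunit. Among the regulatory particle genes it ran from 32.4 CPM for Psmd14, the deubiquitinase of the lid, to 96.4 CPM for Psmc3, an ATPase of the base. The chaperones that assemble the core particle lay lower, at 11.8 CPM (Psmg4) to 22.7 CPM (Psmg1), and so did those of the base, at 9.34 CPM (Psmd10) to 20.9 CPM (Psmd9). The interferon-inducible catalytic subunits were at 19.2 CPM for Psmb8 and 23.01 CPM for Psmb10. The lowest were the inhibitor Psmf1, at 6.81 CPM, and Psma8, a testis form of Psma7, at 0.65 CPM. Length was that of 1 transcript per gene, and whether liver uses that transcript was not tested. Before division by length, Psma2 (2911 bases) was at 121.5 CPM and Psma1 (1201 bases) at 119.3 CPM.

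Most proteasome genes changed with the time of day, and the core and regulatory particles did so at different hours. A 24 h rhythm shared by both genotypes was called in 31 of 46 genes, 67.4%, while 43.7% of all genes tested were called. The set of 14 core particle genes leaves out Psma8, a testis form of Psma7. All 9 core particle genes called peaked between ZT5.25 and ZT8.90, in the rest phase by the earlier light and dark schedule. All 12 regulatory particle genes called among the 46 peaked between ZT21.31 and ZT2.91, from the late night to the early day of that schedule. Shfm1, a lid subunit outside the symbol pattern, was an exception: it was called with a peak at ZT9.74. The test was edgeR's quasi-likelihood test of a cosine and a sine term, with Benjamini-Hochberg adjustment over 13646 genes. Of all 5962 genes called, 36.3% peaked between ZT4 and ZT12, 34.5% between ZT20 and ZT4, and 29.2% between ZT12 and ZT20. Amplitude is how far the cosine's top lies above its mean, in log2 CPM. It was 0.12 to 0.52 in the 31 genes, with a median of 0.23, against 0.322 over all genes called. Whether RNA per cell or the share of cells of a type changed cannot be told apart in whole liver.

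**Figure D1:**
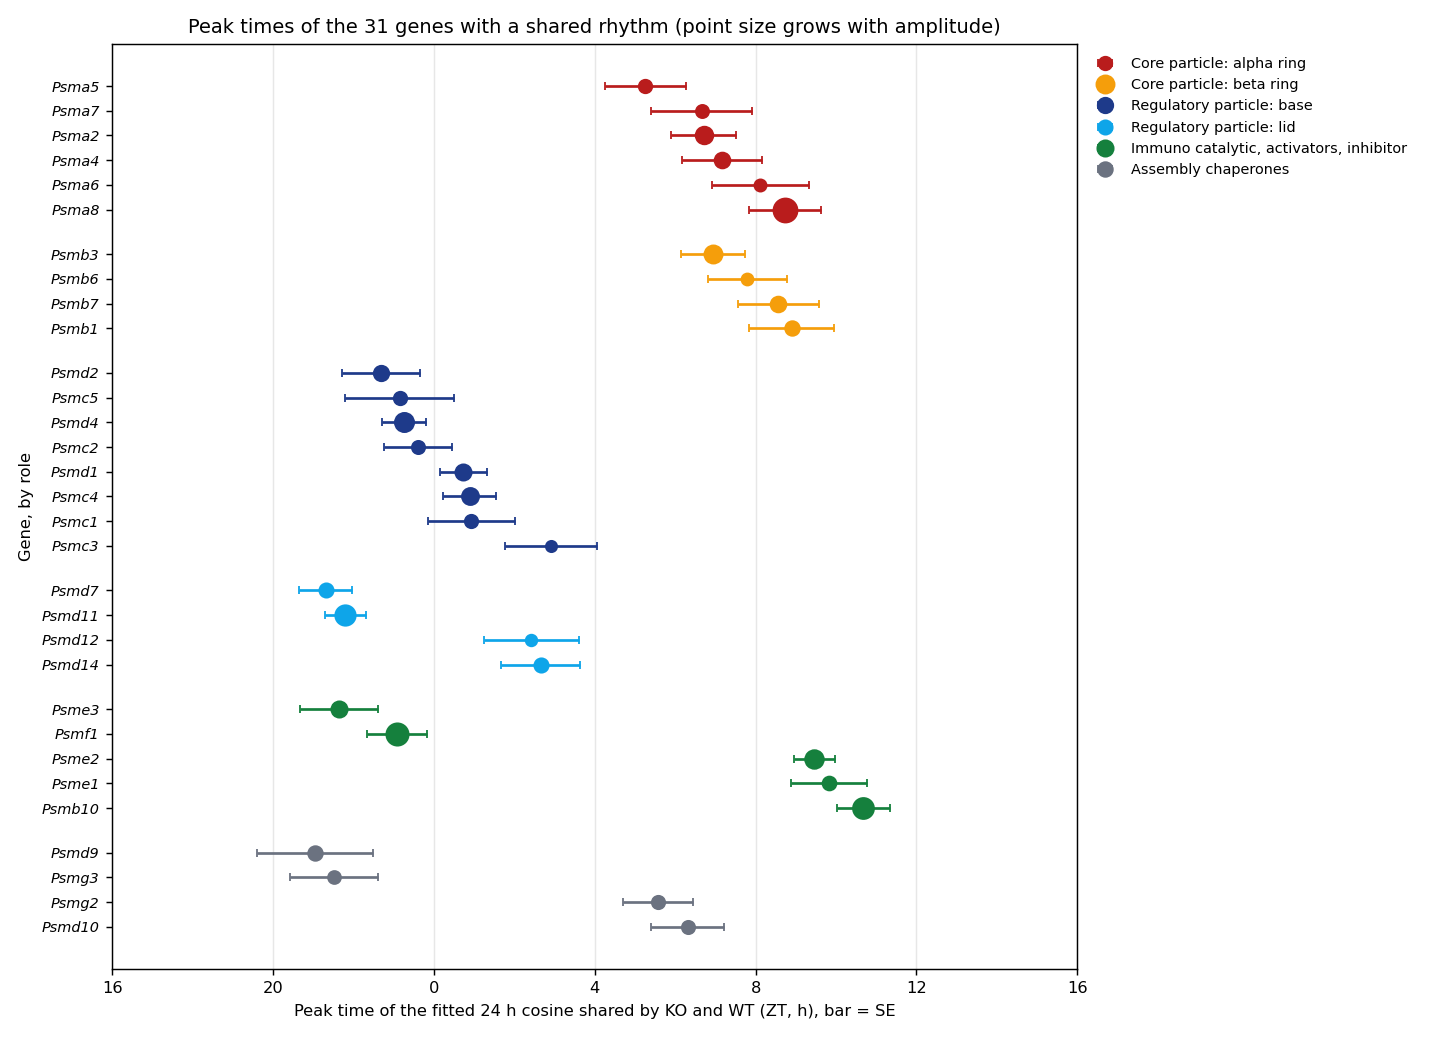
Peak time (ZT, h, with SE) of the 24 h cosine shared by KO and WT mice for the 31 genes called, grouped by role, with point size growing with amplitude. Core particle genes sit between ZT5.25 and ZT8.90 and regulatory particle genes between ZT21.31 and ZT2.91.

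In the alpha ring, 6 of 8 genes were called. Psma2 had an amplitude of 0.32 (SE 0.07) and a peak at ZT6.71 (SE 0.81 h). Psma4 had an amplitude of 0.26 and a peak at ZT7.16, and Psma5 0.19 and ZT5.25. Psma7 (0.18, ZT6.66) and Psma6 (0.15, ZT8.12) had small amplitudes. The sixth gene, Psma8, had the largest amplitude of the 46 genes, 0.52 (SE 0.12), with a peak at ZT8.74. It rested on 2 to 28 counts per library, and reads that it shares with Psma7 may have been divided between them. The genes without a call, Psma1 and Psma3, had fitted peaks at ZT5.93 and ZT7.22.

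In the beta rings, 4 of the 7 genes of the constitutive particle were called. Psmb3 had the largest amplitude, 0.34 (SE 0.07), and a peak at ZT6.94 (SE 0.80 h). Its mean level was highest at ZT4 in KO (225 CPM) and at ZT8 in WT (207 CPM). Psmb7, the trypsin-like site, had an amplitude of 0.26 and a peak at ZT8.57. The caspase-like site, Psmb6, had an amplitude of 0.15 (peak ZT7.79), and Psmb1, a structural subunit, 0.23 (peak ZT8.90). Psmb5, the chymotrypsin-like site, Psmb2 and Psmb4 had amplitudes of 0.14, 0.13 and 0.11 and were not called (adjusted p = 0.0951, 0.0923 and 0.08 in the quasi-likelihood test). Fitted peaks were at ZT4.51 for Psmb2 and ZT6.79 for Psmb4. That of Psmb5, at ZT2.99, fell nearer to the hours of the regulatory particle.

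In the base, 8 of 9 genes were called. Psmd4, the ubiquitin receptor, had the largest amplitude of the base, 0.37 (SE 0.05), with a peak at ZT23.25 (SE 0.55 h). The scaffolds Psmd1 and Psmd2 had amplitudes of 0.28 (peak ZT0.73) and 0.25 (peak ZT22.69). Among the ATPases, Psmc4 had an amplitude of 0.30 (SE 0.05) and a peak at ZT0.88. Psmc5 (0.19, ZT23.15), Psmc1 (0.19, ZT0.93), Psmc2 (0.18, ZT23.60) and Psmc3 (0.12, ZT2.91) had smaller amplitudes. The ATPase Psmc6 was not called (adjusted p = 0.248, quasi-likelihood test); its fitted peak was at ZT7.96 and its transcript had the lowest GC content of the 46, 36.97%.

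In the lid, 4 of 8 genes were called. Psmd11 had the smallest p of the 46 genes (adjusted p = 5.63e-07, quasi-likelihood test), with an amplitude of 0.41 (SE 0.05) and a peak at ZT21.79 (SE 0.51 h). Psmd7, the partner of the deubiquitinase, had an amplitude of 0.22 and a peak at ZT21.31. Psmd14, the deubiquitinase itself, and Psmd12 peaked later, at ZT2.66 (amplitude 0.22) and ZT2.42 (0.13). Psmd3, Psmd6, Psmd8 and Psmd13 were not called. Fitted peaks were at ZT22.77 for Psmd3 and ZT3.28 for Psmd6. Those of Psmd8, at ZT6.52, and Psmd13, at ZT6.92, fell within the hours of the core particle.

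Among the regulators outside these particles, the PA28 genes that interferon-gamma induces, Psme1 and Psme2, peaked at ZT9.83 and ZT9.46, with amplitudes of 0.20 and 0.35. The catalytic subunit Psmb10 peaked at ZT10.68 with an amplitude of 0.42 (SE 0.07), and Psmb8 was not called (0.18, ZT10.69, adjusted p = 0.075, quasi-likelihood test). Psme3, the nuclear PA28 subunit, peaked at ZT21.64 (0.28), and Psme4, the PA200 activator, was not called. Psmf1, the PI31 protein first described as an inhibitor of the core particle, peaked at ZT23.08 with an amplitude of 0.46 (SE 0.09). The assembly chaperones were spread over both times: Psmg2 peaked at ZT5.57 and Psmd10 at ZT6.31, while Psmd9 peaked at ZT21.04 and Psmg3 at ZT21.52. Their amplitudes were 0.18 to 0.23, and Psmg1, Psmg4 and Psmd5 were not called.

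**Figure D2:**
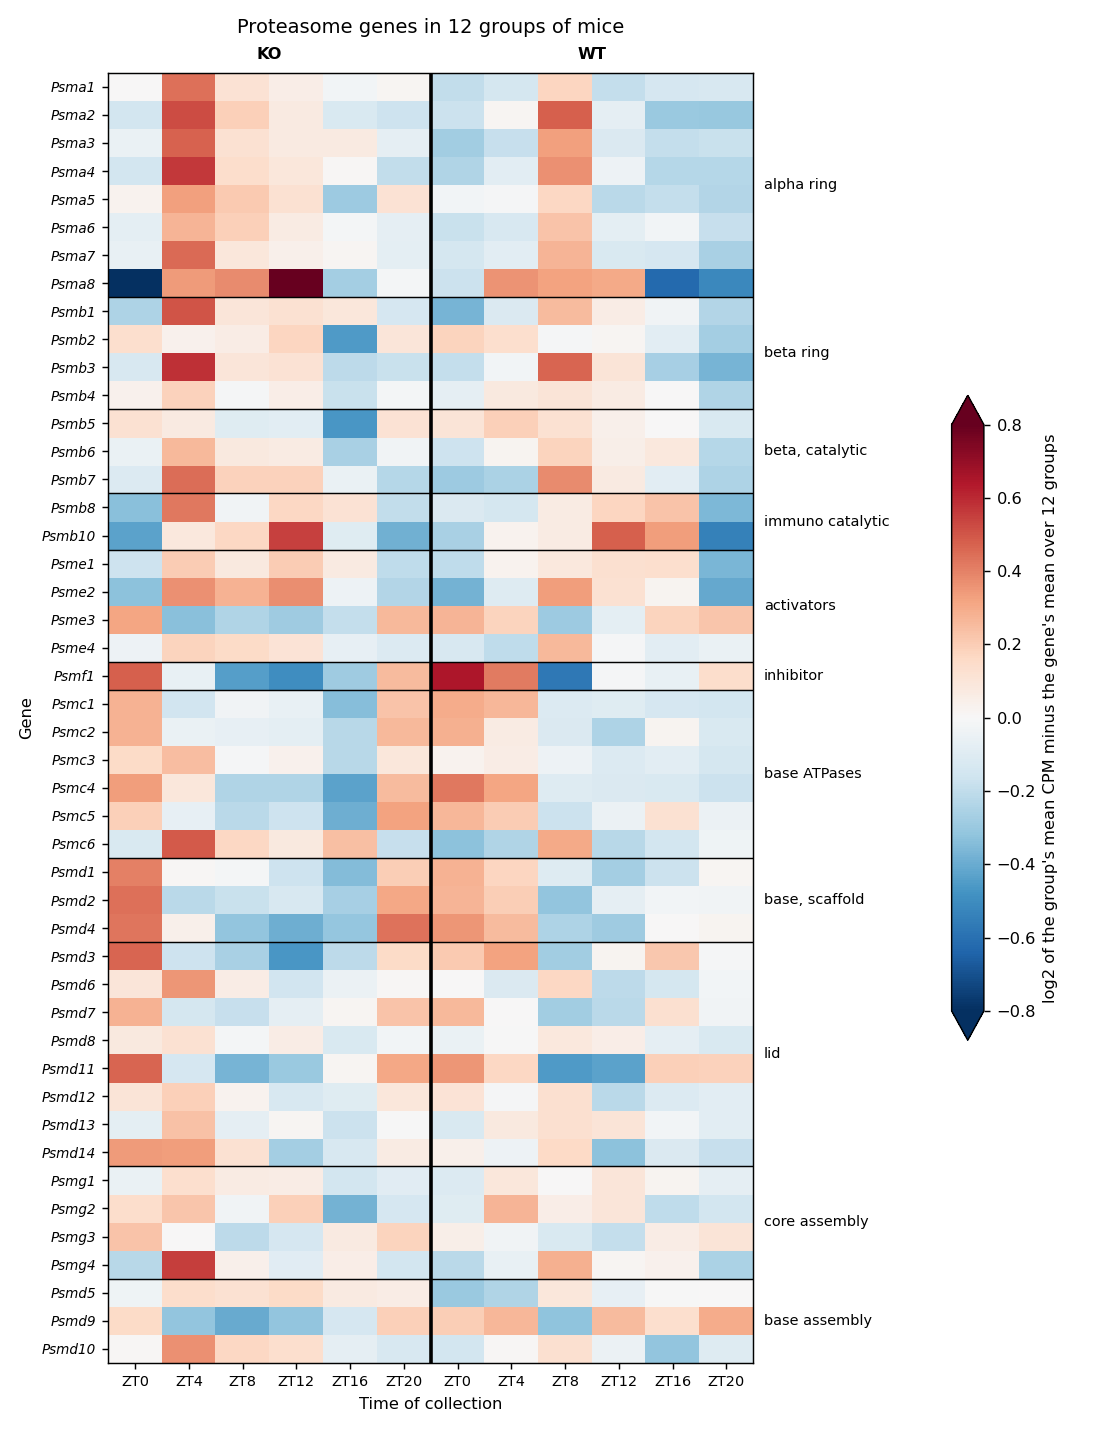
Log2 of each group's mean CPM minus the gene's mean over the 12 groups, for 46 genes (rows, by role) at 6 times in KO mice (left) and WT mice (right); values beyond 0.8 in size take the end colours. The alpha ring genes other than Psma8 are highest at ZT4 in KO and at ZT8 in WT, and Psmc1, Psmc2, Psmc4, Psmd1 and Psmd2 are highest at ZT0 in both genotypes.

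The order of the particles in the day was also found with GC slope in the model. With the slope as a covariate, 30 genes were called, 25 of them the same genes, and 24 of these 25 peaked in the same window of ZT4 to ZT12 or ZT20 to ZT4. The peaks of these 25 genes shifted by at most 1.55 h. The exception to the shared window was Psma5, at ZT3.96 (SE 1.04 h). Larger shifts were seen among genes called in 1 fit only. Psmd3 moved by 4.74 h, to ZT3.51 (SE 1.34 h), Psmd6 by -2.58 h, Psmc5 by 2.56 h and Psma7 by -1.72 h. With the slope in the fit, Psmd3 of the regulatory particle thus peaked close to Psma5 of the core particle. Calls were lost for Psma6, Psma7, Psmb1, Psmc5, Psmd9 and Psmg3, and gained for Psmb4, Psmb5, Psmd3, Psmd6 and Psmg1. The median amplitude of the genes called was smaller with the slope in the fit, 0.17 against 0.23 without it. It was 0.16 against 0.23 in the core particle and 0.17 against 0.22 in the regulatory particle. The amplitudes given per gene above are those without the slope. Without the 8 libraries of extreme slope, 41 genes were called. All 14 core particle genes were called then, 13 of them between ZT4 and ZT12 and Psmb5 between ZT20 and ZT4. So were 16 of 17 regulatory particle genes, 14 of them between ZT20 and ZT4 and 2 (Psmc6 and Psmd13) between ZT4 and ZT12. How many of all genes were called in these fits is not given here, so a rise in calls does not single out the proteasome genes. When each library was left out in turn, 7 to 11 core genes and 9 to 13 regulatory genes were called. No regulatory gene called moved to the window of ZT4 to ZT12, while up to 1 core gene called lay between ZT20 and ZT4. The core particle transcripts were shorter (median 1162 bases) than those of the regulatory particle (1785 bases), and their median GC contents were 48.9% and 49.7%. The part of transcript length in the difference was not tested.

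**Figure D3:**
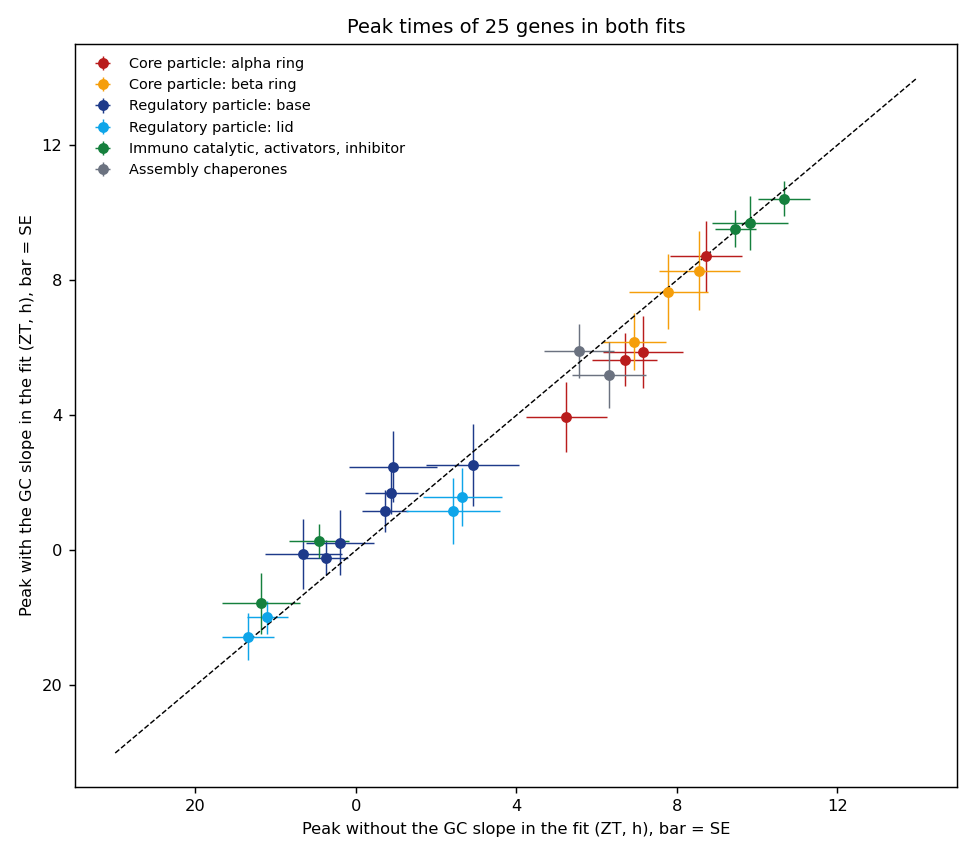
Peak time without (x axis) and with (y axis) the GC slope of each library in the fit, both in ZT h with SE, for the 25 genes called in both fits. Points lie along the dashed line of equal times, with shifts of at most 1.55 h.

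Tested in each genotype alone, a rhythm was called in 13 of 46 genes in KO (28.3%, against 17% of all genes) and in 10 in WT (21.7%, against 16.3%). With KO ZT16 replicate 3 left out, these counts were 25 in KO and 16 in WT, and without WT ZT20 replicate 2 the WT count was 17. The 8 genes called in both were Psmb10, Psmc4, Psmd1, Psmd4, Psmd7, Psmd11, Psme2 and Psmf1, singled out here after their values were seen. Any difference between times was called in 10 genes in KO (9.73% of all genes) and in 6 in WT (8.55% of all genes). Those called in KO were Psmb10, Psmc2, Psmc4, Psmd1, Psmd2, Psmd4, Psmd7, Psmd11, Psme2 and Psmg2. Those called in WT were Psmb10, Psmc4, Psmd1, Psmd7, Psmd11 and Psme2. The KO count was 19 without KO ZT4 replicate 1, 16 without KO ZT16 replicate 3, and 6 without each of KO ZT0 replicates 1, 2 and 4, KO ZT4 replicate 4, KO ZT8 replicate 3 and KO ZT20 replicate 1. The WT count was 11 without KO ZT16 replicate 3. For these counts, the shares of all genes called in the fits that left out a library are not given here.

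Psmd11 (mm9 chromosome 11, 80242117 to 80286750), a helical subunit that helps to hold the lid together, was high at ZT0 and low at ZT8. At ZT0 it was at 177.5, 113, 132 and 141 CPM in the 4 KO mice and at 193, 118, 115 and 95.7 CPM in the 4 WT mice. At ZT8 it was at 71.8, 92.8, 74.7 and 75.3 CPM in KO and at 74.2, 79.8, 74.7 and 69.25 CPM in WT. In each genotype every mouse at ZT0 was above every mouse at ZT8, and KO and WT mice overlapped at both times. Means at ZT4, ZT12, ZT16 and ZT20 were 92.9, 83.0, 103 and 127 CPM in KO, and 114, 75.8, 116 and 116 CPM in WT. The fitted amplitude was 0.42 in KO and 0.40 in WT, and the rhythm was called in KO (adjusted p = 0.000816) and in WT (adjusted p = 0.00148, edgeR quasi-likelihood test).

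Psmd4 (mm9 chromosome 3, 94836616 to 94846536), which binds ubiquitin chains, followed the same course. At ZT0 it was at 187, 259, 178 and 224 CPM in KO and at 242, 229.5, 167 and 169 CPM in WT. At ZT12 it was at 96.5, 123, 134 and 128 CPM in KO and at 118, 115, 129 and 156 CPM in WT. The mice of ZT0 lay above those of ZT12 in both genotypes. In KO the mean was 213 CPM at ZT20 as well.

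Among the other genes of the base, Psmc4 (mm9 chromosome 7, 28826726 to 28835120) was at 132, 174, 114 and 146 CPM in KO and 152, 170.4, 145 and 133 CPM in WT at ZT0. At ZT16 it was at 85.0, 88.9 and 76.7 CPM in KO and at 105, 99.1, 89.6, 122 and 99.9 CPM in WT. Psmd1 (mm9 chromosome 1, 87960962 to 88059363) was at 175, 167.5, 144 and 167 CPM in KO and 160, 171, 137 and 133.5 CPM in WT at ZT0. It was at 109, 114 and 69.1 CPM in KO and 126, 116, 96.35, 84.0 and 127 CPM in WT at ZT16. For both genes every mouse at ZT0 was above every mouse at ZT16 of its genotype.

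Psmd7 (mm9 chromosome 8, 110104281 to 110112382) was at 100.5, 112, 99.7 and 104 CPM in KO and 109, 101, 111 and 88.5 CPM in WT at ZT0. At ZT8 it was at 73.3, 89.0, 66.4 and 73.4 CPM in KO and 76.6, 72.8, 67.2 and 66.05 CPM in WT. Every ZT0 mouse was above every ZT8 mouse of its genotype, a difference of 1.38 times between the means in KO and 1.45 times in WT.

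Psmf1 (mm9 chromosome 2, 151541548 to 151569922) was at 33.7, 31.04, 36.2 and 37.9 CPM in KO and 42.7, 50.9, 30.01 and 33.04 CPM in WT at ZT0. At ZT8 it was at 20.5, 20.7, 17.5 and 14.7 CPM in KO and 19.1, 14.5, 16.5 and 17 CPM in WT. The mice of ZT0 and ZT8 did not overlap in either genotype. Its rhythm in WT was close to the threshold (adjusted p = 0.0434, quasi-likelihood test). The adjusted p went past 0.05 in 14 of the 48 fits that each left out 1 library, up to 0.122 without WT ZT0 replicate 2.

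The interferon-inducible genes ran in the other direction. Psmb10 (mm9 chromosome 8, 108459628 to 108462292) was at 43.9, 41.1, 38.3 and 47.2 CPM in KO and 37.9, 32.9, 39.2 and 52.5 CPM in WT at ZT12. At ZT20 it was at 21.15, 25.4, 17.75 and 25.0 CPM in KO and 21.8, 12.7, 20.8 and 24.9 CPM in WT. Psme2 (mm9 chromosome 14, 56206278 to 56209950) was at 130.5, 133, 121 and 137 CPM in KO and 119, 105, 95.4 and 118 CPM in WT at ZT12. At ZT20 it was at 83.3, 77.9, 82.4 and 98.7 CPM in KO and 74.8, 75.7, 82.0 and 71.0 CPM in WT. Every ZT12 mouse was above every ZT20 mouse of its genotype for both genes. A near copy of Psme2, Psme2b-ps, had 3 to 22 counts per library. How reads that match both were counted is not given in the sources used here.

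**Figure D4:**
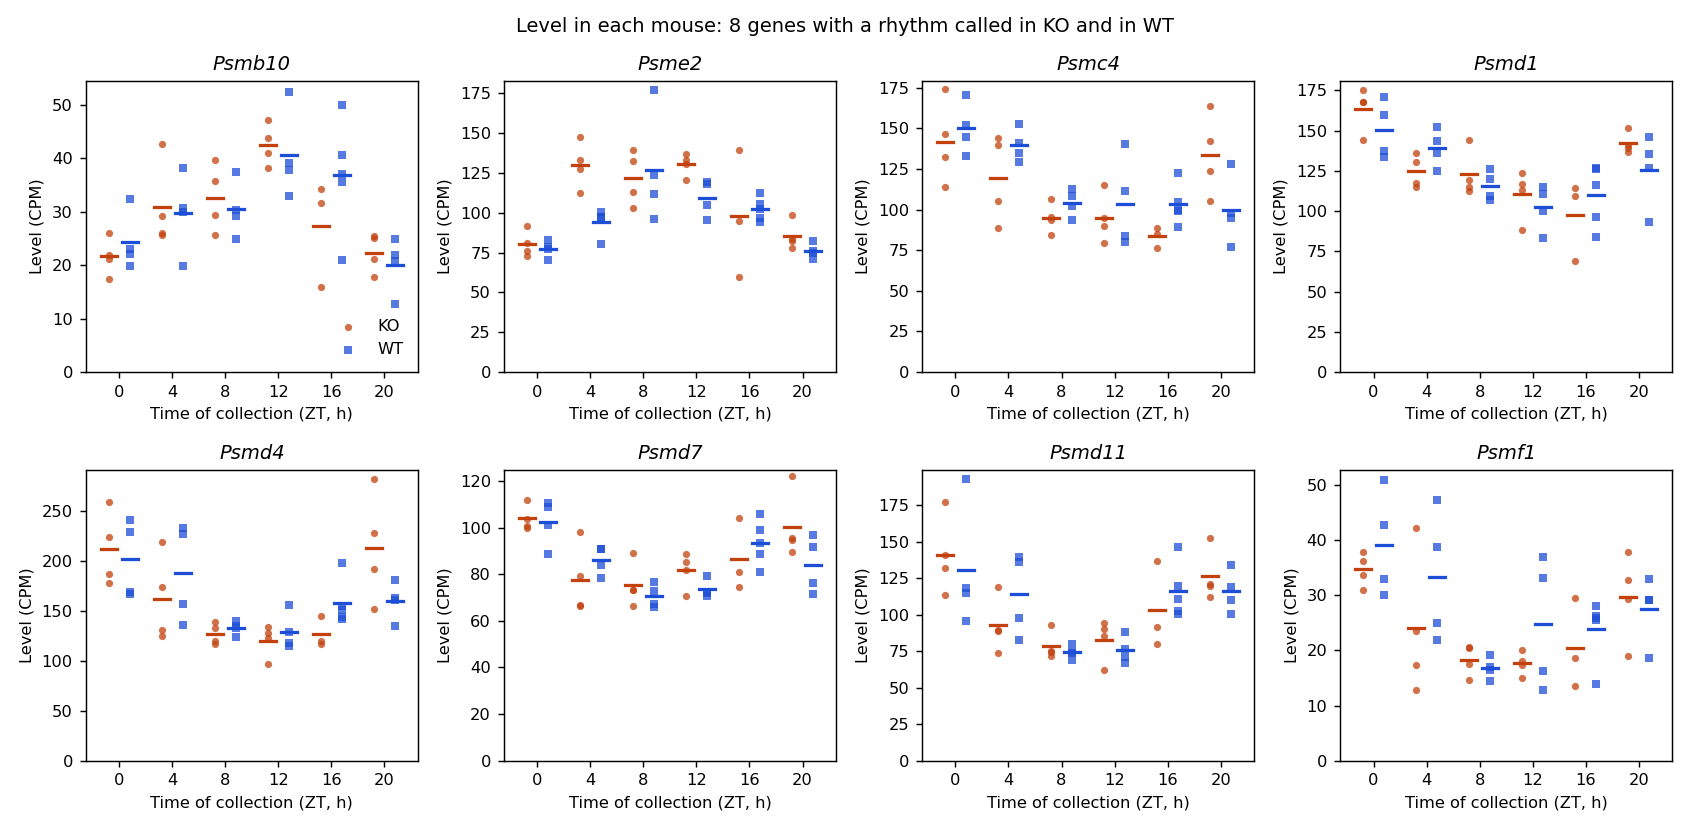
Level (CPM) in each mouse by time of collection for the 8 genes whose rhythm was called in KO and in WT; circles are KO mice (left at each time), squares WT mice, and lines group means. The highest group means of Psmb10 and Psme2 are at ZT8 or ZT12, and those of the other genes at ZT0 or ZT20.

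The study compared KO with WT liver, and no proteasome gene differed between them at an adjusted p under 0.05. Over all times 0 of 46 genes were called, while 1.40% of all genes were (edgeR quasi-likelihood test, Benjamini-Hochberg adjustment). DESeq2 called 0 of 46 as well. At an unadjusted p under 0.05 there were 5 genes, 10.9%, against 17.1% of all genes. Psma1, Psma5, Psmd10 and Psme2 were higher in KO and Psmd9, a chaperone of the base, was lower. The median log2 difference, KO minus WT, was 0.05 over the 46 genes, with 32 above 0, and -0.00 over all genes tested.

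The values of Psmd9 ran from 21.3 over a median of 45.2 to 97.4 CPM in KO and from 36.8 over 57.4 to 94.9 CPM in WT. Its log2 difference of -0.28 (SE 0.12, adjusted p = 0.239, quasi-likelihood test) was the lowest of the 46, and the genotypes overlapped over most of their range. Psmc6 had the highest, 0.22, with 89.7, 128 and 270.2 CPM in KO and 79.5, 112 and 234 CPM in WT as lowest, median and highest. The 95% intervals of the 46 differences over all times lay between -0.52 and 0.48, and 45 of 46 lay wholly within 0.5 of 0. This bound does not carry over to single times, where 11 (ZT20) to 24 (ZT12) of 46 intervals lay wholly within 0.5 of 0. The summed level of the 14 core particle genes had a median of 2147 CPM in KO (range 1424 to 3120) and 1915 CPM in WT (1411 to 3342). For the 17 regulatory particle genes the medians were 1990.0 CPM in KO and 1930.0 CPM in WT.

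**Figure D5:**
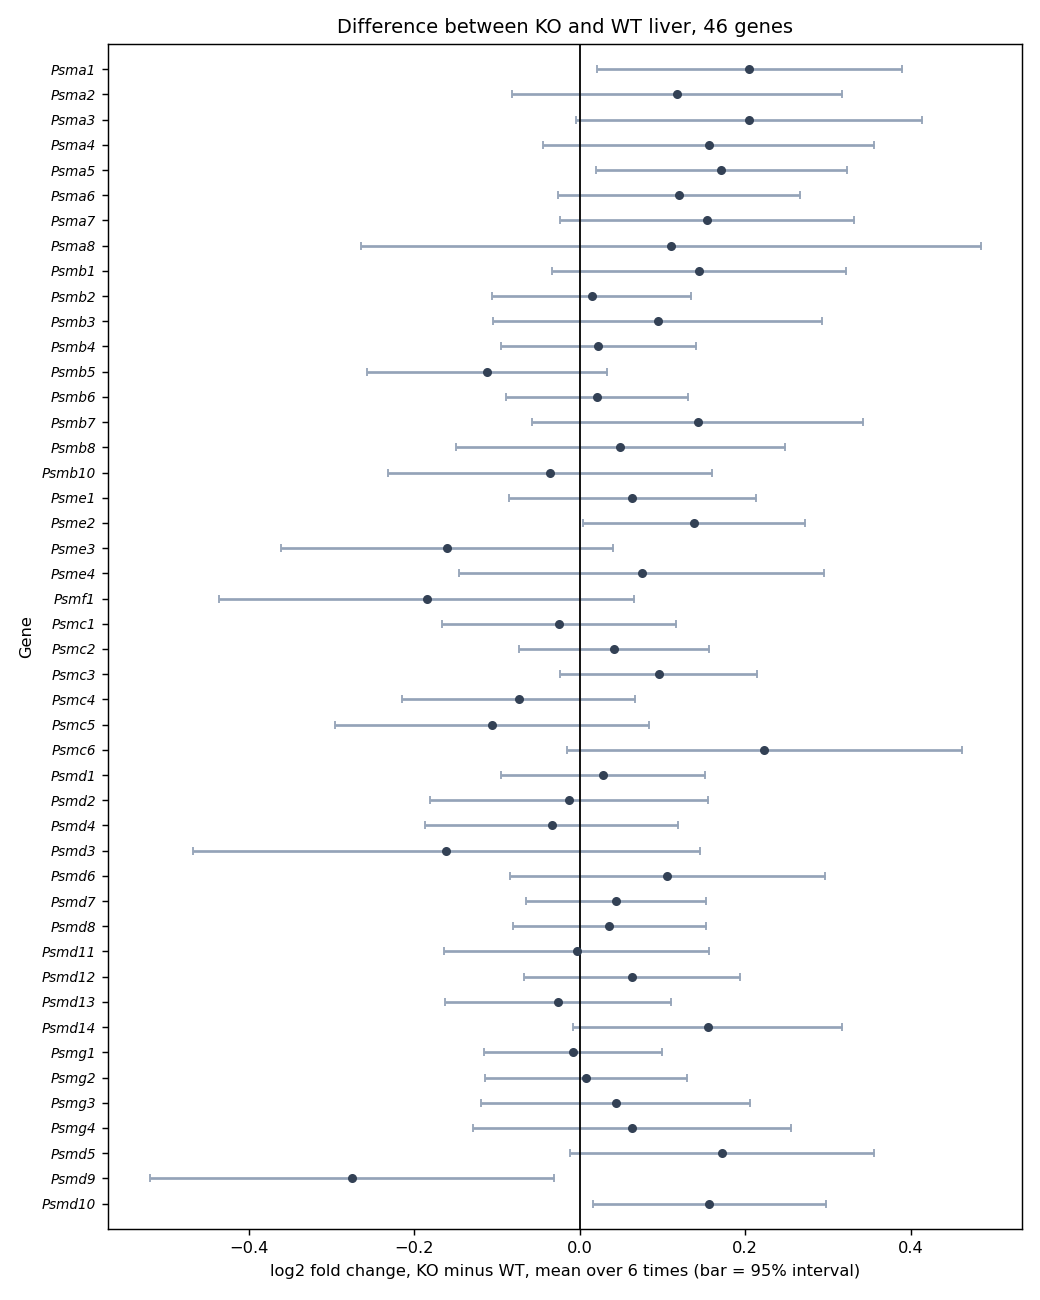
Log2 fold change, KO minus WT, as the mean over 6 times, with 95% interval, for 46 genes ordered by role. The values lie between -0.28 for Psmd9 and 0.22 for Psmc6, and none passed the threshold after adjustment.

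At single times 0 of 46 genes were called as well. The shares of all genes called were 0.0147% at ZT0, 0.0366% at ZT4, 0.00% at ZT8, ZT12 and ZT20, and 0.0220% at ZT16. An unadjusted p under 0.05 was found for 0 of 46 genes at ZT0 (5.53% of all genes), ZT8 (1.82%) and ZT12 (4.40%). It was found for 18 genes at ZT4 (39.1%, against 23.3% of all genes), for 4 at ZT16 (8.7%, against 6.65%, all lower in KO) and for 5 at ZT20 (10.9%, against 1.84%, all higher in KO). Those at ZT16 were Psmb2, Psmb5, Psmb6 and Psmc5, and those at ZT20 were Psmb2, Psmc1, Psmc2, Psmc4 and Psmd4. DESeq2 called 0 of 46 at each time. The interaction of genotype with time was called in 0 genes (0.00733% of all genes), with 4 at an unadjusted p under 0.05 (3.28% of all genes). The difference in rhythm was called in 0 genes (0.00733% of all genes), with 0 at an unadjusted p under 0.05 (2.66% of all genes), and DESeq2 called none in either.

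At ZT4, 15 of the 18 genes were higher in KO, among them 6 of 8 alpha ring genes and Psmb1, Psmb3 and Psmb7 of the beta rings. Psmc1, Psmd2 and Psme3 were lower. Psme2 was at 112, 147.5, 133 and 127.5 CPM in KO and at 100.2, 80.3, 97.4 and 97.45 CPM in WT at ZT4, with every KO mouse above every WT mouse. Its log2 difference was 0.47 (SE 0.16, adjusted p = 0.132, quasi-likelihood test), the smallest adjusted p at that time. The ZT4 libraries also differed in GC slope, with a mean of -0.328 (range -0.817 to 0.525) in KO and 0.224 (-0.0306 to 0.56) in WT. With GC slope as a covariate, 3 genes had an unadjusted p under 0.05 and the median log2 difference of the 46 genes was 0.08, against 0.17 without it. Without KO ZT4 replicate 1, the KO library of highest slope at that time, 19 genes were called, 13 higher and 6 lower in KO, along with 24.6% of all genes. The summed level of the MHC class I and interferon-gamma genes at ZT4 was 5580 to 6640 CPM in KO and 4380 to 5170 CPM in WT. The largest terms were B2m and H2-K1, which over all times averaged 2277 and 1728 CPM in KO and 2014 and 1794 CPM in WT. Of the 17 genes tested, 0 were called at ZT4, where 0.0366% of all genes were. The smallest adjusted p was 0.0875, for Gbp2 (quasi-likelihood test). The part of these genes in the difference of Psme2 was not tested.

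The fitted peaks fell earlier in KO than in WT in 27 of the 31 rhythmic genes, by a median of 1.4 h (KO minus WT -1.4 h), and in 63.9% of all 5962 rhythmic genes, with a median of -0.609 h. With GC slope in the fit the share was 28 of 31, with a median of -1.43 h. As above, the test of the difference in rhythm called none of them; its smallest p was that of Psmb6 (0.0569 before adjustment). Psmb6 had its highest mean at ZT4 in KO (192 CPM) and at ZT8 in WT (181.5 CPM). Amplitude was larger in KO in 23 of the 31 genes (74.2%, against 58.1% of all rhythmic genes), and in 17 with GC slope in the fit (54.8%, against 44.4%).

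Between mice of a group, core particle genes varied together. The median Pearson correlation of deviations from the group means was 0.723 over pairs of core genes across 48 mice (Spearman 0.731), against 0.001 over all pairs of genes whose log2 CPM averaged 2 or more. It was 0.36 within the regulatory particle (Spearman 0.417) and 0.265 between both particles (Spearman 0.257). Within Psmb8, Psmb10, Psme1 and Psme2 it was 0.65 (Spearman 0.638), and between these and the core it was 0.0695 (Spearman -0.0393). With the GC slope removed these medians were 0.731, 0.505, 0.511, 0.685 and 0.221. Without the 2 libraries farthest in GC slope, KO ZT4 replicate 3 and KO ZT16 replicate 3, they were 0.706, 0.368, 0.329, 0.635 and -0.0216. These are descriptions: the genes share libraries, depth and GC slope.

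The genes outside the set whose deviations were most like the mean of the 31 core and regulatory genes, by Pearson correlation across 48 mice, were Nsfl1c (r = 0.837), Hspe1 (0.77), Chchd2 (0.763), 2410003K15Rik (0.76), Cox7a2 (0.758), Prdx5 (0.757), Dnajc2 (0.756), Phb (0.755), Higd1a (0.749) and Hprt (0.748). Nsfl1c encodes p47, a cofactor of the unfoldase VCP, and Hspe1 the mitochondrial chaperonin partner. Their rank correlations were 0.716 to 0.849.

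The ratio of interferon-inducible to constitutive catalytic counts, not corrected for length, overlapped between genotypes. Psmb8 counts were 33% of Psmb5 counts at the median in KO (range 20.3% to 73.2%) and 32% in WT (17.2% to 62.0%). Psmb10 counts were 16.1% of Psmb7 counts in KO (8.02% to 31.1%) and 17.2% in WT (5.62% to 42.3%). By time, the median for Psmb8 to Psmb5 ran from 24.1% at ZT0 to 47% at ZT4 in KO, and from 26.8% at ZT4 to 36.8% at ZT16 in WT. No test was made of these ratios.

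Genes of the MHC class I and interferon-gamma response were set beside the inducible subunits. Of 17 tested, 9 had a shared rhythm, where 43.7% of all genes did, and 8 of the 9 had a peak between ZT4 and ZT12. Nlrc5, the activator of class I genes, had an amplitude of 0.35 and a peak at ZT7.55, Irf1 0.35 and ZT4.87, and B2m, the light chain of class I, 0.22 and ZT10.03. The ninth, the peptide transporter subunit Tap1, peaked at ZT2.01. Between genotypes 1 of 17 was called, where 1.40% of all genes were: Gbp3, a guanylate-binding protein, averaged 16.7 ± 8.74 CPM in KO (SD, n = 23) and 10.6 ± 5.699 CPM in WT (SD, n = 25), with a log2 difference of 0.65 (SE 0.18, adjusted p = 0.0488, quasi-likelihood test). The median over the 17 genes was 0.04.

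Markers of other liver cells were measured beside these genes. Their counts of shared rhythms stand against 43.7% of all genes tested. The 9 lymphocyte markers summed to 2.43 to 13.9 CPM in KO (median 8.57) and to 3.94 to 37.2 CPM in WT (median 7.82), none of 9 with a shared rhythm, and none at 0 in every library. The 6 macrophage markers found, of 7 listed, summed to medians of 189 CPM in KO (72.3 to 388) and 148 CPM in WT (59.3 to 668), and 1 of 6, Csf1r, had a shared rhythm. The 5 neutrophil markers had medians of 6.30 CPM in KO and 6.44 CPM in WT, reached 509 CPM in KO and 434 CPM in WT, and all 5 had a shared rhythm, with peaks between ZT20 and ZT4. Single mice carried the highest sums at these times: the sum reached 509 CPM at ZT20 in KO (median 10.4) and 434 CPM at ZT0 in WT (median 6.78). The neutrophil rhythm was not tested without these mice. Markers of sinusoidal endothelium summed to medians of 180 CPM in KO (106 to 251) and 164 CPM in WT (108 to 227), and 5 of 5 had a shared rhythm. Those of stellate cells summed to 297 CPM in KO (156 to 730) and 348 CPM in WT (131 to 745), and 3 of 5 had one. The part of these cell types in the rhythms of the proteasome genes, and in the values of Psmb8, Psmb10, Psme1 and Psme2 was not tested.

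Transcription factors known to control proteasome genes, their partners, enzymes that process NRF1 and regulators of the proteasome were followed as well. Of 8 tested, 0 differed between genotypes over all times and 4 had a shared rhythm, against 43.7% of all genes. Nfe2l1, which encodes NRF1, the factor that induces proteasome genes when activity is low, averaged 146 ± 40.2 CPM in KO (SD, n = 23) and 135 ± 39.3 CPM in WT (SD, n = 25). Its amplitude was 0.35 (SE 0.06) and its peak was at ZT18.94 (SE 0.70 h). Ddi2, the protease that activates NRF1, had an amplitude of 0.27 and a peak at ZT19.78. Zfand2a, a heat-inducible proteasome regulator, peaked at ZT21.29 and Mafg, a partner of NRF1, at ZT14.65. Nfe2l2, which encodes NRF2, was not called (adjusted p = 0.174, quasi-likelihood test).

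Among the ubiquitin genes, the activating enzymes, the shuttles and the unfoldase, 11 of 15 had a shared rhythm, where 43.7% of all genes did. Of the 11, 7 peaked between ZT20 and ZT4, as did 34.5% of all rhythmic genes. Sqstm1, the autophagy receptor p62, had the largest amplitude, 0.48 (SE 0.07), with a peak at ZT21.72. Nploc4, a cofactor of VCP, had an amplitude of 0.42 (peak ZT20.99), Ubqln1, a shuttle, 0.22 (peak ZT21.34), and Vcp itself 0.17 (peak ZT23.14). Rps27a, a gene of a ubiquitin and ribosomal protein fusion, peaked at ZT10.44. None of the 15 differed between genotypes over all times, at a smallest adjusted p of 0.437 (quasi-likelihood test).

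Of 8 further proteasome parts outside the symbol pattern, 2 had a shared rhythm, where 43.7% of all genes did. Pomp, the maturation factor of the core, and Shfm1, the smallest lid subunit, had peaks at ZT9.04 and ZT9.74 and amplitudes of 0.21 and 0.29. Adrm1, a ubiquitin receptor of the base, had an amplitude of 0.32 and a peak at ZT21.60 and was not called (adjusted p = 0.0683, quasi-likelihood test). The deubiquitinases Usp14 and Uchl5 were not called. None of the 8 differed between genotypes over all times; Pomp came nearest, at 175 ± 48.1 CPM in KO (SD, n = 23) and 148 ± 32.2 CPM in WT (SD, n = 25), with a log2 difference of 0.23 (adjusted p = 0.182, quasi-likelihood test). Of the fasting-induced ubiquitin ligases Fbxo32 and Fbxo30, neither had a shared rhythm or a genotype difference that was called.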

How the data were processed

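RNA was measured by sequencing in 48 livers, 1 library per mouse. Per the submitters' processing notes, the authors used CASAVA, STAR 2.4.1d and the mm9 build; the counting program, its use of strand and its treatment of reads with several matches are not given in the sources used here. The table that the authors deposited holds whole-number read counts. Alb was left out because its counts were whole multiples of a step of 1311.614 reads. Depth without Alb was 12841969 to 13009797 counts per library. Totals this alike, and the steps of Alb, leave it unknown whether counts were equalised or rescaled before deposit, and the counting error of the original reads is then unknown too.

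Groups came from the labels. Genes were filtered with filterByExpr, which left 13646, scaled by TMM and tested with edgeR 4.0.16 (R 4.3.3) quasi-likelihood fits and Benjamini-Hochberg adjustment, with a threshold of 0.05. KO minus WT was tested over all times and at each time, with the interaction, and rhythm by a 24 h cosine. Cosine amplitudes and peaks were fitted on log2 CPM with a prior count of 2. GC slopes used GENCODE M21 transcripts of GRCm38. The scripts were tested on simulated data. The genes and lists were chosen with earlier results of these data known. Genes named are those past the threshold in any comparison and, per role and comparison, the one with the smallest p; others were named after their values were seen. Alternatives were DESeq2 1.42.0, its size factors, no filter on low counts, GC slope, age or body weight as covariates, a replicate block and leaving out libraries. Of the promoter motifs searched, 1 is not reported here.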

Additional observations from a re-analysis of the deposited data

Results flagged for a closer look

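Among the 8 genes with a rhythm in both genotypes, 88 groups of 4 or 5 mice were examined for a mouse far from its group, and 4 were found, where chance gives about 1 in 20. Psmd11 was at 92.8 CPM in KO ZT8 replicate 2, above the 71.8 to 75.3 CPM of the other mice. Psmd4 was at 197.7 CPM in WT ZT16 replicate 4, above 142 to 155 CPM in the others. Psme2 was at 80.32 CPM in WT ZT4 replicate 2, below 97.4 to 100.2 CPM in the others. Psmf1 was at 13.9 CPM in WT ZT16 replicate 2, below 25.5 to 28.1 CPM in the others.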

How the results depend on the processing

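None of the proteasome gene results compared across the alternative runs reversed, although counts of genes called moved. Over all rhythmic genes, amplitude was larger in KO in 58.1%, and in 44.4% with GC slope in the fit. A shared rhythm was called in 31 genes, in 26 to 34 when each library was left out, and in 25 (no filter) to 41 (without libraries of extreme GC slope). The rhythm count in WT, 10, was 16 with the GC covariate, 21 without extreme GC slope, and 8 to 17 in leave-one-out fits. In KO, 13 became 21 without extreme GC slope and ranged from 9 to 25. The count for differences between times in WT, 6, was 11 with the GC covariate, 12 without extreme GC slope, 12 with DESeq2, and 4 to 11. In KO, 10 became 6 without a filter, 16 without extreme GC slope, and ranged from 6 to 19. At ZT4, 0 to 19 genes were called, and 0 in the leave-one-out fits of the other KO minus WT comparisons. The cause of these changes was not tested. The share of all genes called in the same fit is given above only for ZT4 without KO ZT4 replicate 1. The labels do not say that replicate numbers pair the mice. Of 23 same-numbered pairs, 22 had the same age, 14 correlated over 0.1 (range -0.49 to 0.6, median 0.157), and in 12 the correlation was highest with the own number, a hint from the data and not the design. With the replicate block, 0 proteasome genes were called in the comparisons of KO with WT. With 1 cycle sampled, 4 mice per group, and a GC slope and body weights that moved with time, small amplitudes are the least certain.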
